A study of Homo sapiens with 17 samples.

Results

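MALAT1 and NEAT1 are neighbouring genes for long noncoding RNAs that stay in the nucleus. This account follows the authors' eCLIP peaks on both RNAs across 6 proteins of 293T cells, a human embryonic kidney line. A peak was taken as a member when it lay on the plus strand of chromosome 11 with its midpoint in chr11:65265233-65273940 for MALAT1 or chr11:65190269-65213011 for NEAT1, in hg19 coordinates. Of 389788 peaks in 11 lists, 1471 were members, of which 641 lay on MALAT1 (8708 nt) and 830 on NEAT1 (22743 nt). Positions are given below in nt from 1 at the 5′ end of each span. RefSeq annotates both genes as long noncoding RNAs. No annotation of the hg19 build was used, so exons, isoform ends and processing sites are not marked.

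eCLIP reads out where a protein sits on RNA: ultraviolet light cross-links protein to bound RNA, the protein is immunoprecipitated, and the attached RNA fragments are turned into a sequencing library. Plated, otherwise untreated 293T cells received 400 mJ/cm2 at 254 nm, lysates were trimmed with RNase I, and a membrane region 75 kDa above each protein was cut out. AIFM1, NUMA1, RANGAP1, VIM and ZNF184 had 2 libraries each, numbered replicate 1 and 2 in the labels, and RNF219 had 1. Each protein had 1 size-matched input, the same gel region without immunoprecipitation, against which both of its libraries were set, so the replicates of a protein share their input. The labels do not say whether replicates came from separate cultures, and peak lists hold no expression markers, so the cell identity was not checked.

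MALAT1 is known as an abundant RNA of nuclear speckles, the bodies where splicing factors gather, and its 3′ end is protected by a triple helix formed after a tRNA-like piece is cut off. NEAT1 is the scaffold of paraspeckles, bodies that hold proteins such as NONO and SFPQ. It is made as a short and a long isoform that share their 5′ part, and only the long isoform builds paraspeckles. Both RNAs are abundant and are known to cross-link to many proteins.

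Each peak carries the authors' log2 fold of eCLIP over input and the authors' -log10 p of that difference. Peaks below input have a -log10 p of 0 in these lists. Significant, below, means a -log10 p of at least 3 together with an 8-fold or greater excess over input, a log2 fold of 3 or more. A peak is called enriched with -log10 p of at least 3 above input at any fold. A peak with more reads can pass this at a lower fold, and by their medians peaks on both RNAs had more input reads than other peaks. The part of depth in the enriched shares was not tested. Reads behind a fold were recovered from the fold and p, and are given as "at least" where only the smallest whole numbers with that ratio are known. Peaks with 0 input reads and with 1 look the same in the lists. A range in brackets after a fold is its 95% interval from the recovered reads, and shares of peaks have 95% Wilson intervals. Both cover counting error only and take peaks as independent, although neighbouring peaks can be pieces of 1 site. The highest and lowest 500-nt bins of a protein are ranked by the mean of its replicates, over bins where each has a peak, so 1 library alone can have a more extreme bin.

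The 11 lists held between 10682 peaks (VIM replicate 1) and 63198 peaks (ZNF184 replicate 1). MALAT1 held between 17 peaks (VIM replicate 1) and 131 peaks (ZNF184 replicate 2), and NEAT1 between 40 (VIM replicate 1) and 120 (RANGAP1 replicate 1). The minus strand of both spans, and the plus strand of the genome between them, held 0 peaks in every library. On MALAT1, peaks ran from nt 1285 to nt 8226, so the first 1000 nt held none in any library. On NEAT1 they ran from nt 3 to nt 22702, with a stretch from nt 8509 to nt 11050 where no library had a peak.

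On MALAT1, ZNF184 and VIM stood highest over input, NUMA1 was enriched at low folds over most of its peaks, and AIFM1 and RANGAP1 lay near input. RNF219 was higher toward the 3′ side, with median log2 folds of 1.54 and 0.19 over 3′ and 5′ portions of equal length. It lay below input in some stretches of the 5′ portion, such as nt 2501 to 3000. In all, 31 MALAT1 peaks were significant, in 5 libraries of RNF219, VIM and ZNF184. Of these, 27 lay between nt 1800 and nt 3300, a stretch picked after the values were seen. Many peaks of any fold lay there too: 62 of 93 and 79 of 131 in ZNF184, and 8 of 17 and 11 of 29 in VIM.

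ZNF184, a zinc finger protein with a KRAB domain, had the most MALAT1 peaks. Its 2 libraries had 93 and 131 MALAT1 peaks with median log2 folds of 1.08 and 2.13. Enriched peaks numbered 91 of 93 in replicate 1, where 9.64% of all peaks of that library were enriched, and 131 of 131 in replicate 2, where 10.3% were. Nearly every ZNF184 peak on MALAT1 was thus enriched in both libraries, a share far above the enriched share of the whole lists. The median input reads of these peaks were at least 367 and 201, against 5 and 4 for the other peaks. Significant peaks numbered 1 of 93 in replicate 1 (3.15% of all peaks) and 17 of 131 in replicate 2 (4.82% of all peaks). The share in replicate 2 was 13.0% (8.26% to 19.8%). All 18 lay between nt 2486 and nt 3217. ZNF184 peaks on MALAT1 were short, with median lengths of 19 and 15 nt, and many abutted, so these counts are of pieces and not of separate sites.

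The position shared by both ZNF184 replicates was nt 2590 to 2626 (chr11:65267822-65267858). There the highest log2 folds were 3.06 and 4.29 in ZNF184, from at least 1037 reads against at least 169 input reads in replicate 1. VIM reached 1.94 and 2.89 at this position, RNF219 1.34, and NUMA1 0.04 and 0.47, while AIFM1 and RANGAP1 had no peak. The top ZNF184 peak of replicate 2 lay at nt 3017 to 3038 (chr11:65268249-65268270), with a log2 fold of 4.39 from at least 137 reads against at least 10. Replicate 1 had 2.64 there. Between these crests the ZNF184 values dipped: around nt 2760 to 2853 the highest folds were 0.92 and 1.76. By 500-nt bins, ZNF184 was highest at nt 3001 to 3500, with mean log2 folds of 1.92 and 2.92, and lowest at nt 4501 to 5000, with 0.14 and 2.11. The replicates thus differed more in the low bin than in the high one.

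VIM is vimentin, the intermediate filament protein. It had the fewest MALAT1 peaks, 17 and 29, with median log2 folds of 1.75 and 2.40. Enriched peaks numbered 11 of 17 in replicate 1 (8.44% of all its peaks) and 25 of 29 in replicate 2 (6.87%). Significant ones numbered 1 of 17 in replicate 1 (5.29% of all its peaks) and 10 of 29 in replicate 2 (4.50%). The share in replicate 2 was 34.5% (19.9% to 52.7%), and that in replicate 1 was 5.88% (1.05% to 27.0%). The replicates thus differed in how many peaks passed 8-fold.

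Both VIM libraries had their top MALAT1 peak at nt 1901 to 1959 (chr11:65267133-65267191). The log2 folds there were 3.03 (2.50 to 3.58), from 81 reads against 48 input reads, and 3.95, from at least 227 reads against at least 48. NUMA1 had 1.56 and 2.11 at this place, ZNF184 0.57 and 1.16, RANGAP1 0.12 and 0.09, and AIFM1 -0.97 and -1.05. RNF219 had no peak there. VIM also held significant peaks of replicate 2 at nt 2627 to 2716 and nt 2906 to 2998, with 3.31 and 3.09. ZNF184 replicate 2 had 3.14 and 3.06 at these positions, the pair on MALAT1 where libraries of 2 proteins were significant. VIM's highest 500-nt bin was nt 1501 to 2000 (2.70 and 3.03) and its lowest nt 5001 to 5500 (-0.13 and 0.82).

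RNF219, a RING finger ubiquitin ligase, had 55 MALAT1 peaks with a median log2 fold of 1.23 and the widest spread, from -2.90 to 5.72. Enriched peaks numbered 29 of 55, against 2.38% of all its peaks, a share of 52.7% (39.8% to 65.3%). Significant peaks numbered 2 of 55, against 0.926% of all its peaks. One lay at nt 5170 to 5204 (chr11:65270402-65270436) with a log2 fold of 5.72, from at least 75 reads against at least 1 input read. ZNF184 had 1.24 and 2.26 at this place, and the other 8 libraries had no peak. Next came nt 6379 to 6399 (chr11:65271611-65271631) with 3.11, from 74 reads against 6, where no other library had a peak. The bin of nt 5001 to 5500 was RNF219's highest (2.63) and nt 2501 to 3000, where most significant peaks of ZNF184 and VIM lay, its lowest (-1.002). RNF219 rests on 1 library and has no replicate check.

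NUMA1, which organises spindle poles in mitosis and lies in the nucleus otherwise, had 76 and 66 MALAT1 peaks with median log2 folds of 0.84 and 0.79. Of these, 52 of 76 were enriched in replicate 1 (6.02% of all its peaks) and 44 of 66 in replicate 2 (3.65%). None was significant, against 1.51% and 0.877% of all peaks, and counts of 0 allow shares of up to 3.95% and 4.55%. The top peak of replicate 1 lay at nt 2040 to 2065 (chr11:65267272-65267297) with a log2 fold of 2.23 (1.88 to 2.58), from 247 reads against 95, and replicate 2 had no peak there. NUMA1 was highest in the bin of nt 2001 to 2500 (1.73 in both) and lowest in nt 4501 to 5000 (-0.65 and -0.58). Both libraries thus gave the same high and low bins.

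RANGAP1, which activates the GTPase of Ran in nuclear transport, had 55 and 47 MALAT1 peaks with median log2 folds of 0.10 and -0.11. Enriched were 10 of 55 in replicate 1 (6.13% of all its peaks) and 4 of 47 in replicate 2 (8.66%). The share in replicate 2, 8.51% (3.36% to 19.9%), was close to that of the whole list. No peak was significant, against 1.52% and 2.99% of all peaks, and counts of 0 allow up to 5.45% and 6.38%. MALAT1 peaks lay below input at 23 of 55 and 27 of 47 peaks. The lowest RANGAP1 values were -2.07 at nt 7585 to 7619 and -2.14 at nt 7581 to 7612. In bins, nt 6501 to 7000 was highest (1.35 in both) and nt 4501 to 5000 lowest (-1.33 and -1.65).

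The high bin of RANGAP1 held 1 narrow site that other proteins shared, nt 6511 to 6545 (chr11:65271743-65271777). It was the top MALAT1 peak of both RANGAP1 libraries and of NUMA1 replicate 2. The log2 folds were 2.43 (1.77 to 3.13) and 2.54 (1.88 to 3.25) in RANGAP1, from 91 and 82 reads against 25 each. NUMA1 had 1.74 and 2.22 there, and VIM 2.56 (1.16 to 4.01) and 3.35 (2.22 to 4.62), the VIM values from 11 and 28 reads against 9. AIFM1 replicate 1 had 0.06, and AIFM1 replicate 2, RNF219 and ZNF184 had no peak. The 6 libraries of 3 proteins with values above 1 were each set against their own protein's input.

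AIFM1, a flavoprotein of the mitochondrial intermembrane space, had 35 and 37 MALAT1 peaks with median log2 folds of 0.06 and 0.19. Enriched were 2 of 35 in replicate 1 (0.955% of all its peaks) and 8 of 37 in replicate 2 (0.801%). None was significant, against 0.216% and 0.214% of all peaks, and counts of 0 allow up to 8.57% and 8.11%. Both libraries had their top peak at nt 4288 to 4338 (chr11:65269520-65269570), with log2 folds of 1.99 (0.99 to 3.11) and 2.16 (1.25 to 3.21), from 36 and 92 reads against 11 each. NUMA1 had 1.07 and 0.65 there, RANGAP1 0.30 and -0.33, and RNF219 -0.49. AIFM1 was highest in the bin of nt 4001 to 4500 (1.31 and 1.23) and lowest in nt 1501 to 2000 (-0.97 and -1.05), the bin where VIM was highest.

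**Figure D1:**
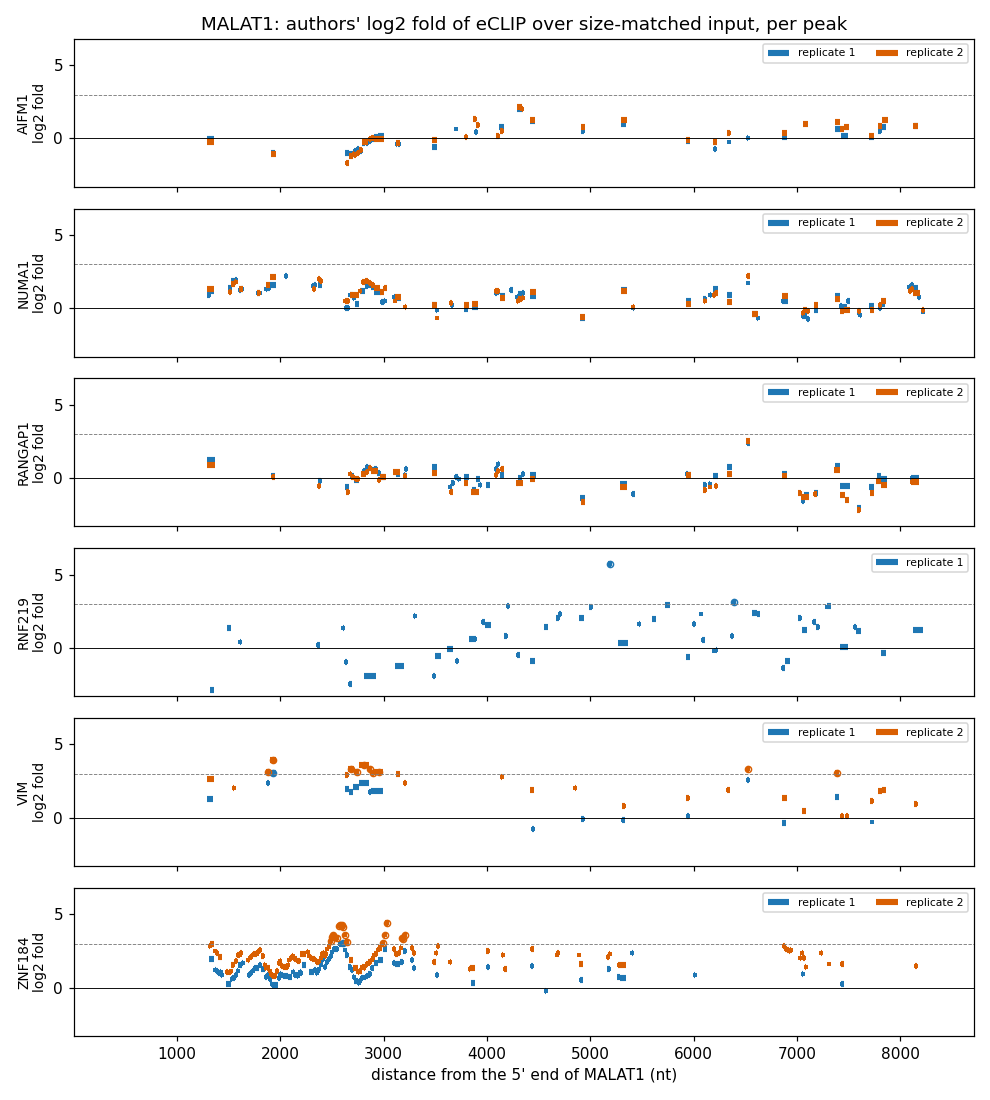
Each bar is 1 peak on MALAT1, drawn over its span in nt from the 5′ end (x axis) at the authors' log2 fold of eCLIP over input (y axis), with 1 panel per protein and a colour per replicate. Circles mark significant peaks, the dashed line is a log2 fold of 3, and the solid line is input. Significant ZNF184 and VIM peaks crowd between nt 1800 and nt 3300, where the medians of RNF219 and AIFM1 lie below input.

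On NEAT1 the order of the proteins was different. RANGAP1 was enriched at most of its peaks along the whole RNA, NUMA1 and VIM were highest at the 5′ end, and ZNF184 was low at the 5′ end and highest at scattered short positions. AIFM1 and RNF219 had few enriched peaks, with shares whose intervals include the low enriched shares of their whole lists. In all, 51 NEAT1 peaks were significant, in 7 libraries of NUMA1, RANGAP1, VIM and ZNF184.

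RANGAP1 had the most NEAT1 peaks, 120 and 116, with median log2 folds of 1.59 and 1.78. Enriched were 97 of 120, or 80.8% (72.9% to 86.9%), against 6.13% of all its peaks, and 104 of 116, or 89.7% (82.8% to 94.0%), against 8.66%. Only 1 and 2 of these peaks lay below input. Significant were 0 of 120 in replicate 1, which allows up to 2.50%, against 1.52% of all its peaks, and 1 of 116 in replicate 2, or 0.862% (0.152% to 4.72%), against 2.99%. The limit and the interval each include the share of the whole list. The significant one lay at nt 164 to 193 (chr11:65190432-65190461), with 3.01 (2.53 to 3.51) from 199 reads against 44. Replicate 1 had 2.76 (2.28 to 3.27) there. Its own top peak was at nt 11051 to 11107 (chr11:65201319-65201375), where both libraries had 2.97, from 85 reads against 16 and from 66 against 15. At that place VIM replicate 2 had 2.07, ZNF184 replicate 2 had 1.45 and AIFM1 had 0.92 and 0.10, while NUMA1 and RNF219 had no peak. The bins ran from 2.27 and 2.50 at nt 1 to 500 down to 0.28 and -0.10 at nt 19001 to 19500.

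NUMA1 had 87 and 69 NEAT1 peaks with median log2 folds of 1.40 and 0.96. Enriched were 73 of 87 in replicate 1 (6.02% of all its peaks) and 36 of 69 in replicate 2 (3.65%). Significant were 9 of 87, or 10.3% (5.54% to 18.5%), against 1.51% of all peaks in replicate 1. In replicate 2 there was 1 of 69, or 1.45% (0.256% to 7.76%), against 0.877%, a share near that of the whole list. All 10 lay in the first 500 nt. There the median log2 folds were 3.02 and 2.17, against 1.22 and 0.85 over the rest of the RNA. The top peaks were at nt 98 to 148 (chr11:65190366-65190416) in replicate 1, with 3.61 from at least 1983 reads against at least 292, and at nt 63 to 97 (chr11:65190331-65190365) in replicate 2, with 3.11. Its lowest bin was nt 19001 to 19500 (-0.26 and -0.01), the same as for RANGAP1.

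VIM had 40 and 50 NEAT1 peaks with median log2 folds of 0.99 and 1.62. Enriched were 11 of 40 in replicate 1 (8.44% of all its peaks) and 26 of 50 in replicate 2 (6.87%). Significant were 4 of 40, or 10.0% (3.96% to 23.1%), against 5.29% of all peaks in replicate 1, a share inside that interval. In replicate 2 there were 13 of 50, or 26.0% (15.9% to 39.6%), against 4.50%. All 17 lay in the first 4000 nt, a cut set near the end of the short isoform, and 12 of them in the first 500 nt. Medians in the first 500 nt were 2.96 and 4.03, against 0.88 and 1.42 over the rest. The top peaks were at nt 19 to 39 (chr11:65190287-65190307) in replicate 1, with 3.86 (3.34 to 4.41) from 123 reads against 41, and at nt 62 to 93 (chr11:65190330-65190361) in replicate 2, with 4.68. A further VIM site lay at nt 2143 to 2261 (chr11:65192411-65192529), with 3.24 (2.43 to 4.09) and 4.30 (3.44 to 5.27). NUMA1 had 2.36 and 1.59 there, ZNF184 -0.38 and 1.40, and AIFM1 -0.25 and 0.50. VIM was lowest at nt 19001 to 19500 (-0.97 and -0.01).

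The 5′ end of NEAT1 therefore drew values of 3 proteins together. At nt 3 to 97 (chr11:65190271-65190365), 4 libraries were significant, with highest log2 folds of 3.27 and 3.11 for NUMA1 and of 3.86 and 4.68 for VIM. RANGAP1 had 2.32 and 2.57, AIFM1 -0.52 and -0.83, and ZNF184 -1.09 and 0.64, while RNF219 had no peak. At nt 98 to 194 (chr11:65190366-65190462), NUMA1 replicate 1, RANGAP1 replicate 2 and VIM replicate 2 were significant, with 3.61, 3.01 and 3.24. Their partner replicates had 2.56, 2.76 and 2.24. RNF219 had -1.10 there, from at least 2 reads against at least 3. Over the first 500 nt, 23 of the 51 significant NEAT1 peaks were found, among 92 peaks there. The medians were 2.28 and 2.53 in RANGAP1, 0.26 and 0.13 in AIFM1, -1.10 in RNF219 and -0.79 and 0.46 in ZNF184. Every NUMA1, RANGAP1 and VIM library lay above every AIFM1, RNF219 and ZNF184 library by this median. This stretch too was picked after the values were seen, and it has no test.

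**Figure D2:**
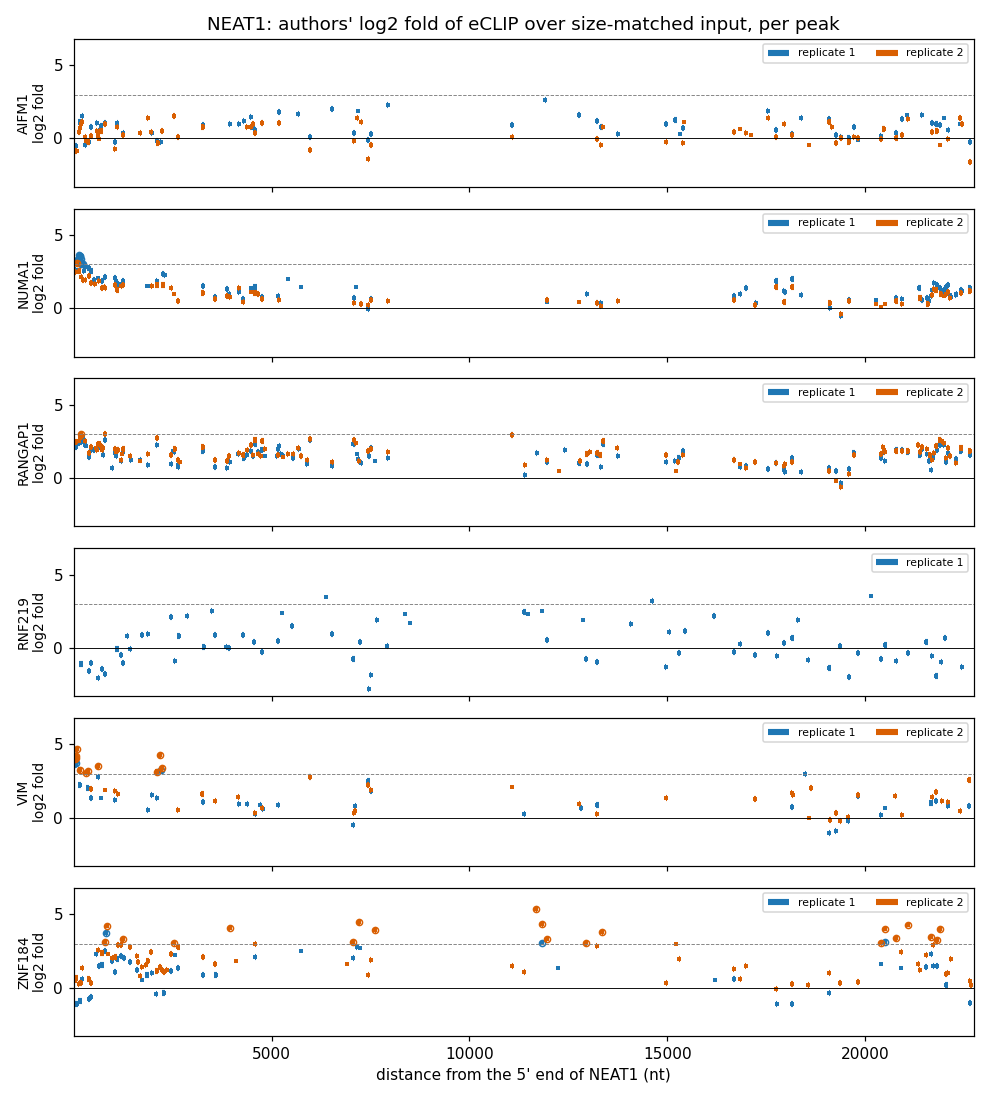
Each bar is 1 peak on NEAT1, drawn over its span in nt from the 5′ end (x axis) at the authors' log2 fold over input (y axis), with 1 panel per protein and a colour per replicate. Circles mark significant peaks and the dashed line a log2 fold of 3. NUMA1 and VIM are highest at the left edge, RANGAP1 lies above input along most of the RNA, and significant ZNF184 peaks are spread out.

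ZNF184 had 48 and 81 NEAT1 peaks with median log2 folds of 1.32 and 1.93. Enriched were 26 of 48 in replicate 1 (9.64% of all its peaks) and 63 of 81 in replicate 2 (10.3%). Significant were 3 of 48, or 6.25% (2.15% to 16.8%), against 3.15% of all peaks in replicate 1, a share inside that interval. In replicate 2 there were 20 of 81, or 24.7% (16.6% to 35.1%), against 4.82%. In contrast to NUMA1 and VIM, 0 of its 23 significant peaks lay in the first 500 nt. All 3 significant positions of replicate 1 were significant in replicate 2 as well. At nt 812 to 841 (chr11:65191080-65191109) the values were 3.71 (2.39 to 5.40) and 4.20 (2.90 to 5.87), from 48 and 60 reads against 5 each, and no other protein had a peak. At nt 11832 to 11851 (chr11:65202100-65202119) they were 3.03 (1.25 to 5.44) and 4.35 (2.70 to 6.69), and RNF219 had 2.49. At nt 20495 to 20509 (chr11:65210763-65210777) they were 3.11 (1.34 to 5.51) and 3.98 (2.30 to 6.34). RANGAP1 had 1.17 and 1.77 there. These sites rest on 3 to 5 input reads each, and their intervals are wide.

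The highest fold on NEAT1 was also from ZNF184. Its replicate 2 had 5.37 at nt 11678 to 11712 (chr11:65201946-65201980), from at least 27 reads against at least 1, and replicate 1 had no peak there. RANGAP1 replicate 1, with 1.68, was the other library with a peak at that place. The bin around it, nt 11501 to 12000, was ZNF184's highest (3.03 and 4.34), and nt 17501 to 18000 its lowest (-1.09 and -0.07).

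AIFM1 had 69 and 74 NEAT1 peaks with median log2 folds of 0.78 and 0.32. Enriched were 2 of 69 in replicate 1, or 2.90% (0.799% to 9.97%), against 0.955% of all its peaks. In replicate 2 there were 0 of 74, against 0.801%. A count of 0 of 74 allows up to 4.05%. None was significant, which allows up to 4.35% and 4.05%, against 0.216% and 0.214% of all peaks. The top enriched peak of replicate 1, at nt 198 to 236 (chr11:65190466-65190504), had 1.56 (0.76 to 2.41), from 46 reads against 19. By the mean of both replicates, its bins ran from 1.60 and 1.30 at nt 21001 to 21500 to -0.22 and -1.60 at nt 22501 to 22743, next to the 3′ end. Replicate 1 had its own highest bin at nt 11501 to 12000, 2.60 from 1 peak, where replicate 2 had no peak.

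RNF219 had 76 NEAT1 peaks with a median log2 fold of 0.16, and 33 lay below input. Enriched were 3 of 76, against 2.38% of all its peaks, a share of 3.95%. None was significant, which allows up to 3.95%, against 0.926% of all its peaks. The top enriched peak lay at nt 11361 to 11420 (chr11:65201629-65201688) with 2.43 (1.20 to 3.95), from 46 reads against 6. RANGAP1 had 0.23 and 0.86 there, VIM replicate 1 0.27 and ZNF184 replicate 2 1.09. The highest bin was nt 6001 to 6500, with 3.49 from 1 peak of 16 reads against 1 whose p did not pass. Its lowest was nt 501 to 1000 (-1.76).

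**Figure D3:**
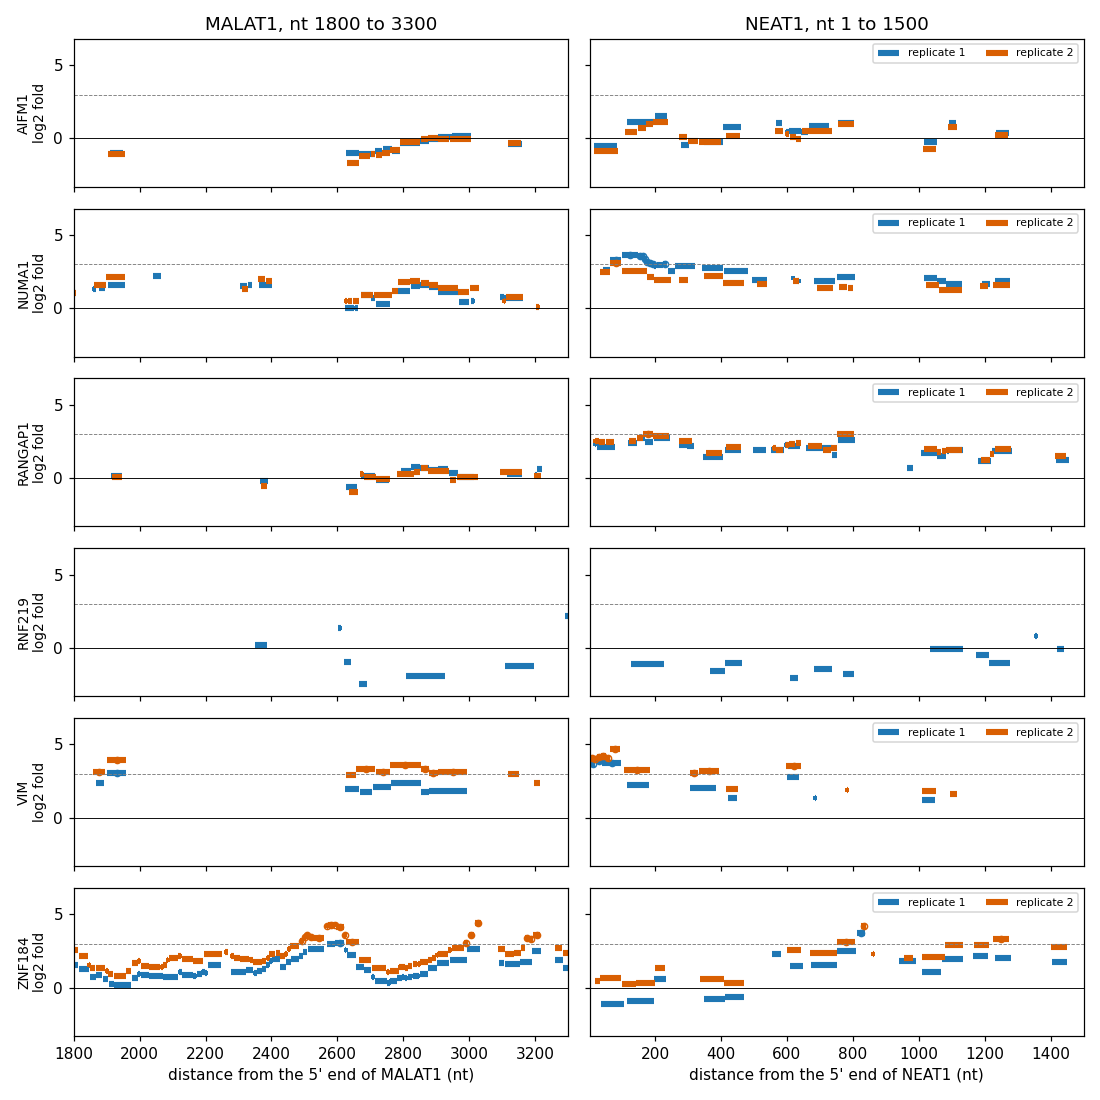
Peaks in the stretches with the most significant peaks, MALAT1 from nt 1800 to nt 3300 (left) and the first 1500 nt of NEAT1 (right), by protein and replicate, with position in nt on the x axis and the authors' log2 fold over input on the y axis. On MALAT1 the short ZNF184 pieces rise to a crest at nt 2590 to 2626, where replicate 2 reaches 4.29. On NEAT1 the first 500 nt hold high NUMA1, RANGAP1 and VIM bars and low AIFM1, RNF219 and ZNF184 bars.

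Set side by side within a library, the proteins did not favour the same RNA. The median log2 fold of MALAT1 minus that of NEAT1 was -1.49 and -1.89 in RANGAP1, -0.72 and -0.13 in AIFM1, -0.56 and -0.17 in NUMA1, and -0.24 and 0.20 in ZNF184. It was 0.76 and 0.77 in VIM and 1.07 in RNF219. With replicates averaged, 2 of 6 proteins had higher MALAT1 values, and the mean difference was -0.11 ± 0.98 (SD, n = 6). An exact sign-flip permutation test over the 6 proteins (2-sided, 64 patterns, smallest p 0.03125) gave p = 0.781 and an adjusted p of 0.781 over 3 such differences, where a single test at the smallest p would not pass 0.05 after adjustment. RANGAP1 and VIM lay on opposite sides in both of their replicates.

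Along each RNA the proteins also differed in direction. On MALAT1, the median of peaks in the 3′ portion minus that in the 5′ portion of equal length was -2.04 and -1.72 in VIM, -0.58 and -0.73 in NUMA1, and -0.16 and -0.73 in RANGAP1. It was 0.52 and 0.88 in AIFM1, 1.35 in RNF219, and -0.30 and 0.13 in ZNF184. The mean over proteins was -0.17 ± 1.12 (SD, n = 6), with p = 0.75 by the exact sign-flip permutation test and an adjusted p of 0.781. Of the 31 significant MALAT1 peaks, 4 lay in the 3′ portion, among 226 peaks, and 27 in the 5′ portion, among 415 peaks.

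On NEAT1, the median in the first 4000 nt minus that over the rest was 1.33 and 1.03 in NUMA1, 0.35 and 0.33 in RANGAP1, and 0.99 and 1.98 in VIM. It was -0.53 and 0.08 in AIFM1, -0.37 in RNF219, and -0.30 and -0.00016 in ZNF184. The mean was 0.38 ± 0.78 (SD, n = 6), with p = 0.406 by the exact sign-flip permutation test and an adjusted p of 0.781. The first 4000 nt held 34 significant peaks among 306 and the rest 17 among 524, and all 17 were of ZNF184. The cut was set near the end of the short isoform, whose exact place was not marked. Peaks before that end can come from either isoform, so amounts bound to the short and the long one cannot be told apart.

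Each RNA was then set against all other peaks of its library by a shift, the median log2 fold of the RNA's peaks minus that of the other peaks. MALAT1 shifts averaged 0.35 ± 0.70 in ZNF184, -0.16 ± 0.51 in VIM, -0.54 ± 0.02 in NUMA1, -0.81 ± 0.45 in AIFM1 and -1.33 ± 0.28 in RANGAP1 (SD, n = 2 each), and the RNF219 library had 0.16. NEAT1 shifts averaged 0.37 ± 0.39 in ZNF184, 0.36 ± 0.01 in RANGAP1, -0.17 ± 0.30 in NUMA1, -0.39 ± 0.03 in AIFM1 and -0.93 ± 0.51 in VIM (SD, n = 2 each), and RNF219 had -0.91. RANGAP1 was thus the lowest protein on MALAT1 and next to the highest on NEAT1. Each protein was compared with the other libraries by an exact permutation test (2-sided, 55 choices of libraries or 11 for RNF219, smallest p 0.0182 or 0.0909). The 2 tests of RNF219 could not reach 0.05. Of the other 10, 0 passed 0.05 before adjustment, and after Benjamini-Hochberg adjustment over 12 tests a single one at the smallest p would not pass, so the adjusted values say little. The lowest p was 0.0727, for RANGAP1 on MALAT1 (-1.09) and for VIM on NEAT1 (-0.86), each with an adjusted p of 0.364 in the exact permutation tests.

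The sign of a shift depended on whether peaks with few input reads were kept. The other peaks of a library had a median of 1 to 5 input reads, while MALAT1 peaks had medians of at least 30 to 367.5 and NEAT1 peaks of at least 12 to 114. With all peaks, the MALAT1 median was above that of the other peaks in 3 of 11 libraries and the NEAT1 median in 5 of 11. Among peaks with at least 10 input reads, MALAT1 was above in 9 of 11, all but the RANGAP1 libraries, with shifts from -0.67 to 2.07. NEAT1 was above in 11 of 11, with shifts from 0.05 to 1.42. Input reads are the denominator of the fold, so this filter by itself lowers the folds of the other peaks, most of which had few. Their median went from 1.23 to 0.45 in ZNF184 replicate 1 and from 2.20 to 0.15 in VIM replicate 2. The MALAT1 medians there were 1.08 under both choices, and 2.40 and 2.22. The counts above are therefore no measure of depth alone. In RANGAP1 the medians of these deeper peaks were 0.10 and -0.08 on MALAT1, against 0.50 and 0.59 for the other peaks.

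**Figure D4:**
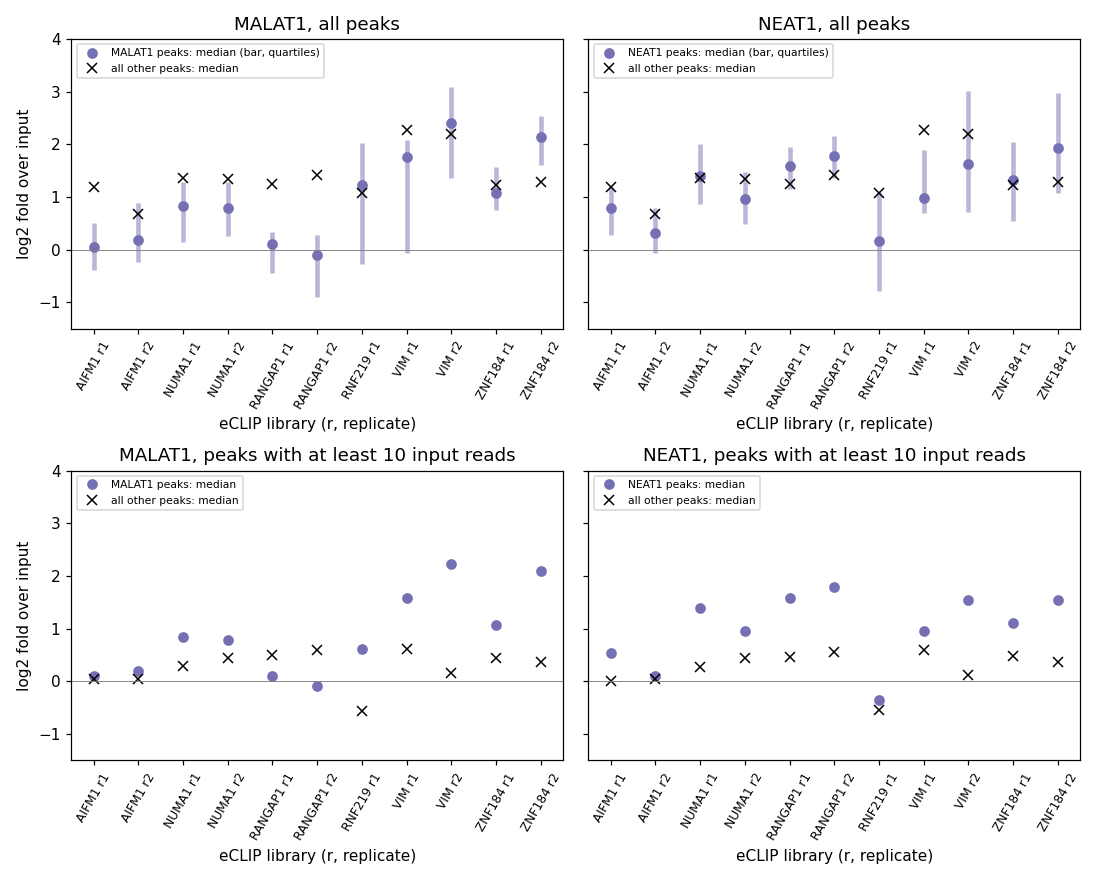
Median authors' log2 fold over input (y axis) of MALAT1 peaks (left) and NEAT1 peaks (right) in each library (x axis), as circles with quartile bars in the upper row, beside the median of all other peaks of that library, as crosses. The lower row keeps peaks with at least 10 input reads. In the upper row 3 MALAT1 circles and 5 NEAT1 circles of 11 lie above their cross, and in the lower row 9 and 11 do.

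The likeness of replicate profiles varied between proteins, with an offset in some. Over 500-nt bins, Spearman's rho between the replicates of a protein ran from 0.47 to 0.97 on MALAT1, over 10 to 15 bins, and from 0.25 to 0.91 on NEAT1, over 18 to 34 bins. VIM was lowest on MALAT1 and AIFM1 on NEAT1. These lowest values depended on the bins: over 250-nt bins VIM had 0.72 on MALAT1 and AIFM1 0.59 on NEAT1. ZNF184 on MALAT1 went from 0.58 to 0.52, the lowest replicate value there over 250-nt bins. Between libraries of different proteins the median rho over 500-nt bins was -0.11 on MALAT1 and 0.03 on NEAT1, over 50 pairs each. The highest of these pairs reached 0.75 and 0.82, above some replicate pairs. Replicates share an input, so their values are not independent. NUMA1 and VIM, which have separate inputs, had rho between 0.74 and 0.82 on NEAT1 over 20 or 21 bins in their 4 pairs. Over 250-nt bins the same pairs had 0.45, 0.61, 0.73 and 0.73, over 26 or 27 bins. On MALAT1, AIFM1 and VIM ran opposite, with rho between -0.85 and -0.56 over 10 to 13 bins. These rho values are descriptions, since bins of 1 library are not independent.

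At overlapping peaks, ZNF184 replicate 2 was higher than replicate 1 at 168 of 168 pairs on MALAT1, by a median of 0.85, and at 52 of 54 on NEAT1, by 1.07. The medians of all peaks in these libraries were close, 1.22 and 1.29. VIM replicate 2 was higher at 22 of 22 pairs on MALAT1, by 1.26, and at 33 of 38 on NEAT1, by 0.43, with medians of all peaks of 2.27 in replicate 1 and 2.20 in replicate 2. RANGAP1 went both ways: replicate 2 was higher at 11 of 63 pairs on MALAT1 and at 105 of 134 on NEAT1. NUMA1 differed little on MALAT1, where replicate 2 was higher at 58 of 96 pairs, and was lower on NEAT1, where it was higher at 10 of 84. Of the significant peaks, 17 of 31 on MALAT1 and 20 of 51 on NEAT1 came from ZNF184 replicate 2. Positions significant in both replicates of a protein numbered 2 on MALAT1 and 6 on NEAT1.

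Both RNAs were compared with strand-specific windows of 10000 nt by their shifts over the 11 libraries. Windows are named by position only, since no hg19 annotation was used. Among 92 windows with at least 5 peaks in every library, the one most like MALAT1 was chr11:93460001-93470000 on the minus strand (Pearson r = 0.69), ahead of chr17:46050001-46060000 on the plus strand (r = 0.68). For NEAT1 it was chr19:2270001-2280000 on the plus strand (r = 0.79), ahead of chr3:52510001-52520000 on the plus strand (r = 0.71). The median r over all 92 windows was 0.03 for MALAT1 and 0.28 for NEAT1, so the leading values are the top of a ranking. MALAT1 and NEAT1 had r = -0.06 with each other over the 11 libraries. These correlations share libraries and inputs and are given as descriptions.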

How the data were processed

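The study deposited 1 peak list for each of 11 eCLIP libraries of 293T cells. The 6 inputs enter only through the authors' values, and input lists are not analysed here. Each list gives, per the file columns, position, strand and 2 values deposited by the authors, the -log10 p-value against input and the log2 fold over input. The build was hg19 and the tools were STAR, cutadapt, SAMtools, Picard and GATK, per the submitters' processing notes. The peak calling method, like the handling of duplicates, was not given in the sources used here. Deposited -log10 p-values end at 400. The top peaks of RNF219 on MALAT1 and of ZNF184 replicate 2 on NEAT1 share the value 15.6576, which may be a further ceiling. Reads at both are known only as least numbers.

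From these values, reads were recovered: in each library the folds are ratios of whole numbers times 1 depth constant, and the p-values follow an exact or a Yates chi-square test. Between 99.7% and 99.9% of folds matched whole reads to within 1e-07 on the log2 scale, and between 98.6% and 99.8% of usable p-values matched to within 0.005 on the log10 scale. Total reads per library are unknown. The steps were tested on simulated data. Shifts were tested with exact permutations over libraries and differences within a library with exact sign flips over 6 proteins, with Benjamini-Hochberg adjustment, in Python 3.11.15, numpy 2.4.6, pandas 2.3.3 and scipy 1.17.1. Peaks named are, by library, the enriched peak with the highest fold, positions significant in both replicates, positions significant in most libraries, and the highest and lowest 500-nt bins; other peaks and the stretches at nt 1800 to 3300 and nt 1 to 500 were singled out after their values were seen. The members, lists and tests were chosen with earlier results of these data known. A planned list of other transcripts was not run, since it needs an annotation of the build. Alternatives changed the peaks kept, the summary, the centring, the positions, the thresholds and the libraries.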

Additional observations from a re-analysis of the deposited data

Results flagged for a closer look

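On NEAT1 the shift against the other peaks of the library was above 0 in both ZNF184 libraries (0.10 and 0.64) and below 0 in both VIM libraries (-1.29 and -0.57). The means were 0.37 in ZNF184 and -0.93 in VIM, a difference of 1.30. The difference was singled out because every library of 1 protein moved one way and every library of the other the opposite way, and it was not tested. Kept to peaks of 10 or more input reads, the shifts were 0.64 and 1.18 in ZNF184 and 0.36 and 1.42 in VIM, so that the libraries overlapped and none was below 0. The medians of the other peaks were 1.22 and 1.29 in ZNF184 and 2.27 and 2.20 in VIM, and among peaks of 10 or more input reads 0.47 and 0.37 in ZNF184 and 0.60 and 0.13 in VIM. The part of input depth in the difference was not tested.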

How the results depend on the processing

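None of the 12 shift tests or 3 tests within libraries passed 0.05 after adjustment under any alternative. No test could pass alone at these sample sizes, so this says nothing about stability. The lowest adjusted p values came under alternatives. The 5′ part of NEAT1 minus the rest (0.38) was 0.59 with at least 10 input reads (adjusted p = 0.094, exact sign-flip permutation test). RANGAP1 on MALAT1 (-1.09) was -1.38 with means weighted by peak length (adjusted p = 0.218, exact permutation test). Several directions changed. VIM on NEAT1 (-0.86) was 0.16 with at least 10 input reads and 0.17 without centring. In the 5 MALAT1 bins of 100 nt with a peak in every library, NUMA1 (-0.12) was 0.34 and RNF219 (0.66) was -1.58. Leaving out 1 library at a time, NUMA1 on NEAT1 (0.06) ran from -0.15 to 0.27 and was below 0 without NUMA1 replicate 1, RNF219 or VIM replicate 1. VIM on MALAT1 (0.34) ran from -0.023 to 0.70, below 0 without VIM replicate 2, and NUMA1 on MALAT1 from -0.26 to 0.034, above 0 without ZNF184 replicate 2. The cause was not tested.

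With a log2 fold of at least 4, significant peaks numbered 6 on MALAT1 and 14 on NEAT1, and positions significant in both replicates 0 and 0. Leaving out 1 library, an alternative chosen after the data were seen, counts ran from 14 to 31 on MALAT1 and from 31 to 51 on NEAT1, lowest without ZNF184 replicate 2. Among counts by library and replicate likeness, 16 of the values under other thresholds or bins moved and 38 did not. The other thresholds were stricter, so libraries with 0 significant peaks had to stay at 0. These are among the 38, and the split is therefore no measure of stability. Among the values that moved, replicate likeness over 250-nt bins was 0.72 for VIM on MALAT1 (0.47 over 500-nt bins), 0.59 for AIFM1 on NEAT1 (0.25) and 0.89 for VIM on NEAT1 (0.75).

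Replicate 2 minus replicate 1 over 92 windows correlated between proteins at r from -0.37 to 0.31 (median 0.06), over 0.1 in 5 of 10 pairs. With 1 such difference per protein, this cannot tell whether a replicate number stands for a shared batch. With the replicate number as a block, RANGAP1 on MALAT1 was -1.11 (adjusted p = 0.4, exact permutation test). With the same block, VIM on NEAT1 was -0.88, at the smallest p possible (p = 0.0333, adjusted p = 0.4, exact permutation test). Depth limits the short ZNF184 sites on NEAT1, which rest on 3 to 5 input reads.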

Other observations

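By windows of 10000 nt with at least 5 peaks in a library, the place of each RNA differed between proteins. The MALAT1 median lay at percentile 81.4 of 2940 windows in ZNF184 replicate 2 and at 85.2 of 366 windows in VIM replicate 2, but at 45.7 and 55.9 in their partner libraries. In RANGAP1 it lay at percentiles 7.97 and 5.22, with 2540 of 2760 and 2485 of 2622 windows higher. AIFM1 was low as well, at percentiles 7.54 and 14.4. The NEAT1 median of the same RANGAP1 libraries lay at percentiles 74.3 and 66.8. In RNF219 the order was turned, with MALAT1 at percentile 75.3 and NEAT1 at 28.9 of 958 windows. These percentiles describe single libraries and carry no test, and the part of input depth in them was not tested.

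At the 8-fold cut, most positions with a significant peak were significant in 1 protein. Of 25 MALAT1 positions with a significant peak, 2 were significant in libraries of more than 1 protein, and of 28 NEAT1 positions, 2 were. Abutting peaks that share no nt count as separate positions, as for the ZNF184 pieces from nt 2486 to nt 2559 on MALAT1, so these counts are partly of pieces. A protein can also lie just under the cut: VIM replicate 2 had 2.89 at nt 2590 to 2626, where ZNF184 was significant. The same share over all peaks was not computed.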
